A study of Mus musculus with 6 samples.

Results

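The p120 catenin family and the classical cadherins were examined on 6 expression arrays, 1 per sample, of GFP-sorted mouse pancreas cells. The 10 genes listed for this report were the p120 family genes Ctnnd1, Ctnnd2, Arvcf and Pkp4, the cadherins Cdh1, Cdh2 and Cdh3, the catenins Ctnna1 and Ctnnb1, and Zbtb33. A gene entered where a row of the array named it and no other gene, and 9 of the 10 did, of 20259 genes measured in all. Zbtb33, which encodes the p120-binding transcriptional repressor Kaiso, shared its 1 row with another gene and was not described. All animals carried the genotype KCiMist1G, a mouse model of preinvasive pancreatic cancer, and received tamoxifen to activate Cre at 7 to 9 weeks of age. Pancreases were digested and sorted 2 weeks later. In 1 group of 3 samples p120 was wild type (p120wt/wt), and in the other group of 3 samples the p120 alleles were p120f/f, which the labels call knockout. The alleles behind the name KCiMist1G, and whether a sample was 1 animal or a pool, were not given in the sources used here, so p-values measure the spread between these samples only.

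Classical cadherins are transmembrane proteins that hold epithelial cells together at adherens junctions. Their cytoplasmic tails bind p120 catenin near the membrane, which keeps the cadherin at the cell surface, and beta-catenin further out, which connects through alpha-catenin to actin. In the absence of p120, cadherins are known to be internalised and degraded as proteins, a step that RNA levels do not report. In the pancreas, E-cadherin is the main cadherin of acinar and duct cells.

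The values were log2 expression, so a difference of 1 is a doubling, and rows of different genes cannot be ranked against each other by level. The samples were not alike in their cell markers. Knockout sample 1 had a mean of 8.47 over 11 leukocyte markers, where knockout samples 2 and 3 had 7.37 and 7.44 and the wild-type samples 8.11 to 8.23. The mean of 9 epithelial markers was 7.17 in knockout sample 1, 7.84 and 7.83 in knockout samples 2 and 3, and 7.41, 7.67 and 7.49 in wild-type samples 1, 2 and 3. Acinar markers were measured in every sample, with means of 8 genes from 10.35 in knockout sample 1 to 11.13 in knockout sample 3, and the acinar factor Bhlha15, also called Mist1, read 8.61 to 10.06. Knockout sample 1 therefore had the most leukocyte and the least epithelial signal of the 6, although the GFP sort is a step that should remove leukocytes. Leukocyte signal was not limited to that sample, as all 11 markers had a mean above the median gene. Leaving it out widened the median leukocyte marker difference between the groups, from -0.37 to -0.76. Without knockout sample 1 the differences of Ctnnd2, Cdh2, Ctnna1 and Ctnnb1 were 0.033, 0.15, -0.10 and 0.081, in that order. Those of the other genes stand beside their results. In sorted samples, fewer cells of a type and less RNA per cell cannot be told apart.

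None of the 9 measured genes passed the test between the groups in a limma fit of all 20259 genes with Benjamini-Hochberg adjustment. The smallest adjusted p among them was 0.907, 0 of 9 reached an unadjusted p under 0.05, and the smallest unadjusted p was 0.341. Over all genes that fit called 0 (0%), and 3.49% of genes had an unadjusted p under 0.05. Of the 9, 6 were higher and 3 lower in the knockout samples, with differences from -0.17 to 0.14 and a median of 0.029. Over all genes 61.7% were higher and the median difference was 0.055. Without knockout sample 1, 7 of the 9 were higher, with a median of 0.12 against 0.11 over all genes.

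**Figure D1:**
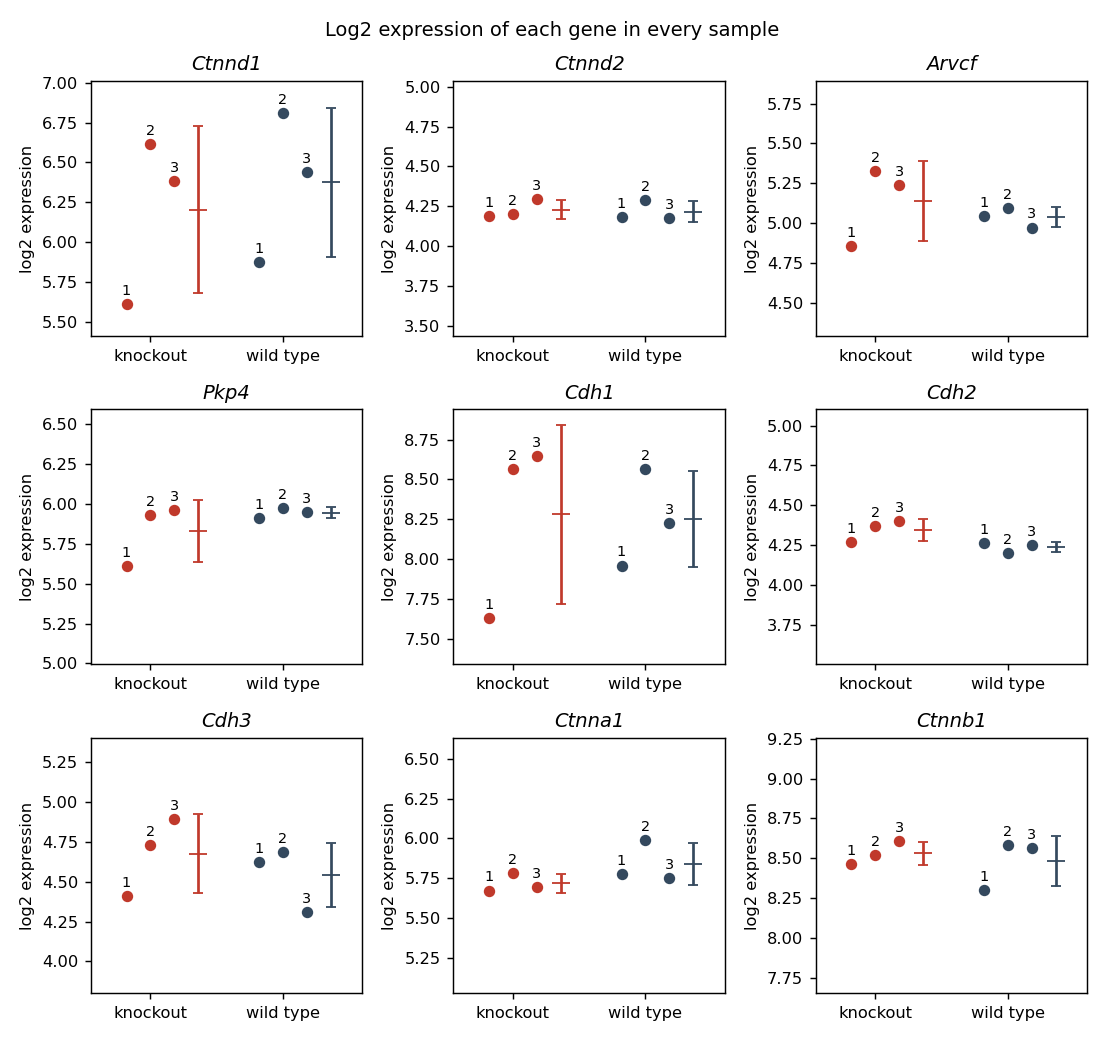
Log2 expression (vertical axis, with the same span in every panel) of each measured gene in the 3 knockout samples (red) and the 3 wild-type samples (dark blue), with the sample number above each point. The bar beside each group is its mean ± SD (n = 3). Ctnnd1 and Cdh1 spread over 0.61 to 1.01 log2 units within each group, and the groups overlap for every gene except Cdh2.

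Ctnnd1, which encodes p120 catenin itself, is the gene targeted in the p120f/f animals. Its log2 values were 5.61, 6.61 and 6.38 in knockout samples 1, 2 and 3 and 5.87, 6.81 and 6.44 in wild-type samples 1, 2 and 3. Sample 1 was the low one in both groups, and the groups overlapped. The range within a group was 1.00 in knockout and 0.93 in wild type, against a difference between the group means of -0.17 (SE 0.32, 95% confidence interval -0.91 to 0.57). That difference was not significant (limma adjusted p = 0.922, exact two-sided permutation p = 0.6, where 3 samples against 3 cannot give less than 0.1). Taken one at a time against the wild-type mean, knockout sample 1 was different by -0.76, while knockout sample 2 differed by 0.24 and knockout sample 3 by 0.0069. Samples with the same number in both groups differed by -0.26, -0.19 and -0.059. The difference was 0.12 when knockout sample 1 was left out, and 0.045 when wild-type sample 2 was. The row summarises probes along the transcript and does not separate the exons removed by Cre, so it checks the labels only weakly, and directions given here are those of the labels.

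Mouse Ctnnd1 lies on the minus strand of chromosome 2 and has transcription starts at separate places in RefSeq, which the single array row does not report separately. The windows around both starts, each from 250 bases before the start to 50 after it on build GRCm38.p6, are shown because Ctnnd1 is the targeted gene. No expression value was tied to either start. CpG dinucleotides are in capitals. The upstream window, chr2:84658928-84659227, holds 30 CpGs, and the internal window, chr2:84650691-84650990, holds 3, against a median of 7 over 32851 such windows.
Ctnnd1 upstream start: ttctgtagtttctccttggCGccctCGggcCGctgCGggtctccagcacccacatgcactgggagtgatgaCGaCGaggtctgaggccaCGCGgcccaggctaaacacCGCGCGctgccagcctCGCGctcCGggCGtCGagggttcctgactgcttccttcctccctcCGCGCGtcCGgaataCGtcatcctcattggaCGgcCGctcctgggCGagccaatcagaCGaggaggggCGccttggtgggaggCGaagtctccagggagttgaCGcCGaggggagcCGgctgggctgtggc
Ctnnd1 internal start: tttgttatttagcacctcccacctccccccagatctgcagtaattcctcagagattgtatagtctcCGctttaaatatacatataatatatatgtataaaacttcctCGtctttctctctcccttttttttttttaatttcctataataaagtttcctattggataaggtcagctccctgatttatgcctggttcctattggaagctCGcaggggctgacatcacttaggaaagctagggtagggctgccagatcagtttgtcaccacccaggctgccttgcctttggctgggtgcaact

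The letters CAGGTG, of an E-box bound by Snail and Zeb repressors, and TCCTGCNA, of the Kaiso motif, were searched in 11 RefSeq windows. Both strands were read. The windows belonged to 6 of the listed genes: Ctnnd1, Ctnnd2, Arvcf, Pkp4, Ctnnb1 and Zbtb33. For the listed genes the search left out 1 chromosome, a filter not applied to the shares over all windows. No window of Cdh1, Cdh2, Cdh3 or Ctnna1 was searched. The counts therefore cover no cadherin gene. CAGGTG occurred in 2 of the 11, 1 window of Arvcf and 1 of Pkp4, and in 20.2% of all windows. TCCTGCNA occurred in 0 of the 11 and in 4.96% of all windows. Neither motif was in the Ctnnd1 windows shown above.

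Ctnnd2, Arvcf and Pkp4 encode the relatives of p120 that share its armadillo repeats, and none passed the test between the groups. Ctnnd2 encodes delta-catenin, known mainly from neurons. Its values were 4.19, 4.20 and 4.30 in the knockout samples and 4.18, 4.29 and 4.18 in the wild-type samples, with a difference of 0.013 (SE 0.11, 95% confidence interval -0.24 to 0.27). This row was dim, below the 25th percentile of gene means (4.29), so a change could be understated. Arvcf, which also binds cadherin tails, read 4.86, 5.33 and 5.24 in knockout samples 1, 2 and 3 and 5.05, 5.09 and 4.97 in the wild-type samples. Knockout samples 2 and 3 were above all wild-type samples and knockout sample 1 below them. The difference was 0.10 (SE 0.15, limma adjusted p = 0.91), and 0.25 without knockout sample 1 (limma adjusted p = 0.161, unadjusted 0.0439). With limma's array weights it was 0.28 and past the threshold (adjusted p = 0.0462), in a fit that gave knockout sample 2 a weight of 8.57 and knockout sample 1 a weight of 0.14 and called 4797 genes.

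Pkp4, which encodes the junction protein p0071, had 2 rows of its own, whose differences had opposite signs. The brighter row, used here, read 5.61, 5.93 and 5.96 in the knockout samples and 5.91, 5.98 and 5.95 in the wild-type samples. Only knockout sample 1 stood below the others. The difference was -0.11 (SE 0.13, limma adjusted p = 0.908), and -0.0010 without knockout sample 1. The dim row read 3.08, 3.41 and 3.28 in the knockout samples and 2.88, 2.74 and 2.38 in the wild-type samples, so the groups did not overlap. Its difference was 0.59, with an exact permutation p of 0.1, the smallest the design allows, and a limma adjusted p of 0.912 (unadjusted 0.0104) in the fit that took the most variable row of each gene. Only 6.37% of the rows with a single gene name had a mean as low as this row or lower. Which transcripts or which signal the dim row reads was not tested.

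Cdh1, which encodes E-cadherin, did not pass the test between the groups either. It read 7.63, 8.56 and 8.65 in knockout samples 1, 2 and 3 and 7.96, 8.56 and 8.23 in wild-type samples 1, 2 and 3. Sample 1 was again the low one in both groups. The group means were 8.28 ± 0.56 for knockout and 8.25 ± 0.30 for wild type (SD, n = 3), a difference of 0.029 (SE 0.29, 95% confidence interval -0.65 to 0.71, limma adjusted p = 0.985, exact permutation p = 0.9). Without knockout sample 1 the difference was 0.35 (limma adjusted p = 0.238), and without knockout sample 3 it was -0.15. The sign of the Cdh1 difference thus depended on single samples.

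Cdh2 encodes N-cadherin, which is found in islet and mesenchymal cells among others. Its values were 4.27, 4.37 and 4.40 in the knockout samples and 4.26, 4.20 and 4.25 in the wild-type samples. The row was dim, with a mean at percentile 25.1 of all genes. All knockout samples lay above all wild-type samples, by a margin of 0.0055 between the nearest pair. This was the only gene of the 9 whose groups did not overlap, against 8.69% of all genes, or 6.21% with the knockout group higher. Its difference was 0.11 (SE 0.11, limma adjusted p = 0.907, exact permutation p = 0.1), and 0.017 after a further quantile normalization. The islet marker mean over 6 genes was 5.69, 6.25 and 6.09 in the knockout samples and 6.11, 6.55 and 6.42 in the wild-type samples, and the mean of 9 fibroblast markers was 6.14 to 6.50 and 6.39 to 7.24. These lists were thus lower on average in the group where Cdh2 read higher, with 5 of 6 islet markers and 9 of 9 fibroblast markers lower, and their part in the Cdh2 values was not tested.

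Cdh3, which encodes P-cadherin, read 4.41, 4.73 and 4.89 in the knockout samples and 4.62, 4.69 and 4.31 in the wild-type samples. The groups overlapped, with knockout sample 3 highest and wild-type sample 3 lowest. Its 0.14 (SE 0.17, 95% confidence interval -0.26 to 0.53) was the largest difference toward higher values among the 9 genes and was not significant (limma adjusted p = 0.908). Leaving out knockout sample 1 gave 0.27, and leaving out knockout sample 3 gave 0.021.

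The catenins that link cadherins to actin varied less among samples than Ctnnd1 and Cdh1 did. Ctnnb1, which encodes beta-catenin, a junction protein and the transducer of Wnt signals, read 8.46, 8.52 and 8.61 in the knockout samples and 8.30, 8.59 and 8.56 in the wild-type samples. Its range was 0.15 in knockout and 0.29 in wild type, and the difference was 0.047 (SE 0.13, 95% confidence interval -0.25 to 0.35, limma adjusted p = 0.946). Ctnna1, which encodes alpha-E-catenin, read 5.67, 5.78 and 5.69 in the knockout samples and 5.78, 5.99 and 5.75 in the wild-type samples. Its difference of -0.12 (SE 0.12, 95% confidence interval -0.40 to 0.16, limma adjusted p = 0.907) came with an exact permutation p of 0.3. It was below 0 in each of the 6 fits that left out an array, from -0.16 to -0.047. Neither gene followed the low reading of Ctnnd1 and Cdh1 in knockout sample 1 to the same size: against the wild-type mean that sample differed by -0.022 for Ctnnb1 and -0.17 for Ctnna1, and by -0.76 for Ctnnd1 and -0.62 for Cdh1.

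**Figure D2:**
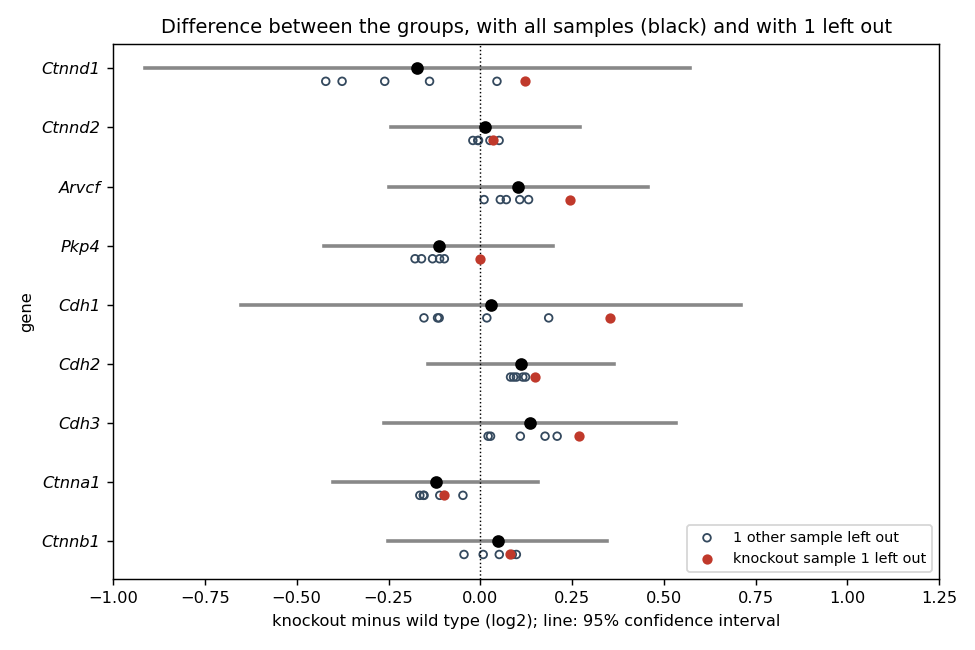
Knockout minus wild-type difference (horizontal axis, log2) of each gene with all 6 samples (black points) and its 95% confidence interval from limma (grey lines). Open circles and the red point below each line are the differences with 1 sample left out, red for knockout sample 1. Every interval crosses 0, and the Ctnnd1 value moves from -0.17 to 0.12 without knockout sample 1.

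The variation of Ctnnd1 and Cdh1 among samples was set beside that of the marker lists. Over the 6 samples Ctnnd1 correlated with Cdh1 at Pearson's r = 0.91 (exact permutation p = 0.0153, Spearman's rho = 0.66, exact permutation p = 0.175). In a family of 35 relations the Benjamini-Hochberg values were 0.0851 and 0.408, so the relation did not pass. Without the 2 samples farthest from the median of Ctnnd1, r was 0.24, so the relation rested on those samples. Deviations from the group means gave r = 0.94. Cdh1 followed the epithelial marker mean at r = 0.97 (exact permutation p = 0.00556, adjusted 0.081, rho = 0.83, exact permutation p = 0.0583, adjusted 0.30), and at 0.90 without the 2 samples farthest from the median of Cdh1. For Ctnnd1 against the same markers r was 0.82 (exact permutation p = 0.0556, adjusted 0.162, rho = 0.71, exact permutation p = 0.136, adjusted 0.366), and 0.013 without the 2 farthest samples. Ctnnd1 also followed the mean of 8 endothelial markers, at r = 0.91 (exact permutation p = 0.0181, adjusted 0.0851, rho = 0.66, exact permutation p = 0.175, adjusted 0.408), and at 0.39 without the 2 farthest samples. Not every marker of that list followed its mean. Pecam1 was highest, at 7.57, in knockout sample 1, where Ctnnd1 was lowest. Arvcf followed the epithelial markers at r = 0.94 and the leukocyte markers at r = -0.93 (exact permutation p = 0.00694 and 0.0125, adjusted 0.081 and 0.0851, rho = 0.94 and -0.77, exact permutation p = 0.0167 and 0.103, adjusted 0.292 and 0.30). Without the 2 samples farthest from its median these were 0.88 and -0.83.

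Expressed relative to the epithelial marker mean of the same sample, the spread of Cdh1 over the 6 samples fell from an SD of 0.40 to 0.16, and that of Ctnnd1 from 0.45 to 0.28. On that scale Ctnnd1 was -1.56, -1.23 and -1.45 in the knockout samples and -1.53, -0.86 and -1.05 in the wild-type samples. The groups still overlapped, with wild-type sample 1 among the knockout samples. The difference in Ctnnd1 relative to the markers was -0.26 (exact permutation p = 0.3). For Cdh1 it was -0.061 (exact permutation p = 0.6), opposite in sign to the unscaled 0.029. For Ctnnb1 the spread grew instead, from an SD of 0.11 to 0.22.

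**Figure D3:**
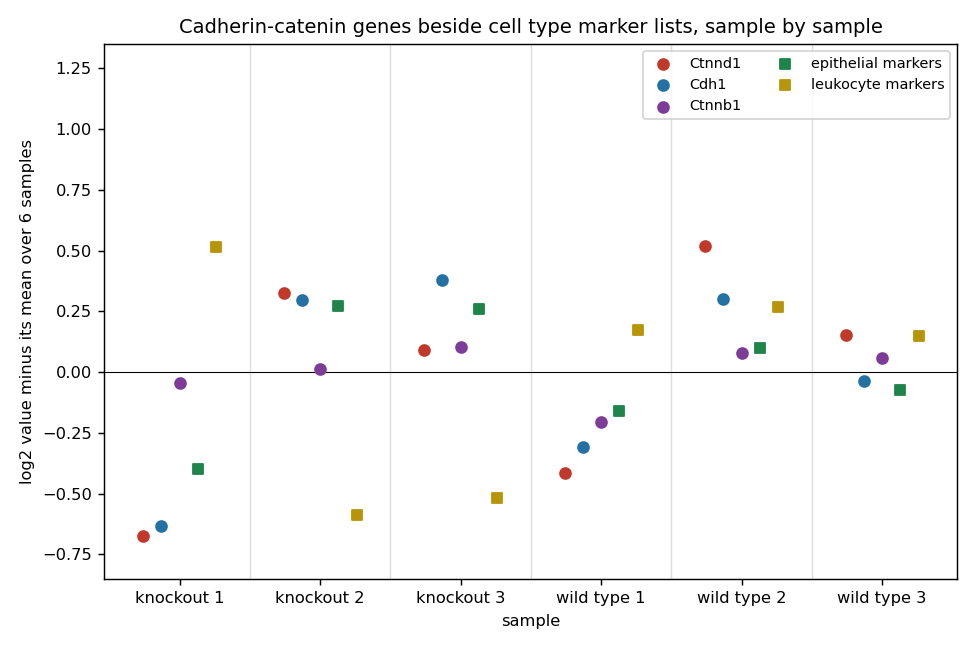
Log2 value minus its mean over the 6 samples (vertical axis) for Ctnnd1, Cdh1 and Ctnnb1 (circles) and for the means of the epithelial and leukocyte marker lists (squares) in each sample (horizontal axis). Ctnnd1, Cdh1 and the epithelial markers are lowest in knockout sample 1, where the leukocyte markers are highest (8.47).

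The genes around these in the pathway were described from lists of their other partners, and 0 of 49 genes in 5 lists passed the limma threshold or an unadjusted p under 0.05. Other classical cadherins were higher in the knockout samples for 12 of 15 genes, with a median difference of 0.14, or 0.20 without knockout sample 1, where the count was also 12. Cdh22 read 5.13, 5.06 and 5.12 in the knockout samples and 5.04, 4.75 and 4.96 in the wild-type samples, a difference of 0.19 (SE 0.12). Cdh11, a mesenchymal cadherin, differed by -0.26 (SE 0.19), and was highest, at 4.58, in wild-type sample 2, where the fibroblast marker mean was also highest at 7.24. Only 1 gene of that list had a mean above the median gene (5.43), so most of these rows were dim.

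Other catenins and plakophilins were higher for 8 of 9 genes, with a median of 0.14, or 0.25 without knockout sample 1, where the count was again 8. Pkp1, a desmosomal plaque protein, had the smallest p of any gene in the lists (unadjusted 0.0554, limma adjusted p = 0.907). It read 4.75, 5.09 and 5.19 in the knockout samples and 4.74, 4.73 and 4.53 in the wild-type samples, a difference of 0.34 (SE 0.15). The groups did not overlap, although knockout sample 1 lay only just above wild-type sample 1. Groups did not overlap for 4 of the 49 genes in the lists and for 8.69% of all genes, so this was not particular to Pkp1. Ctnnbip1, an inhibitor that binds beta-catenin, differed by 0.16 (SE 0.12). Both shares should be read against the 61.7% of all genes that were higher, or 65.3% without knockout sample 1. The median difference was 0.055 over all genes but -3e-04 over the genes above the median gene, so dim genes were shifted more. All genes are thus a lenient yardstick for lists of mostly dim rows, and no share for dim genes alone was taken. The epithelial markers were higher for 9 of 9 genes, with a median of 0.071, or 0.29 without knockout sample 1, where the count was also 9.

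Kinases, phosphatases and turnover factors of the cadherin complex were lower for 9 of 13 measured genes, with a median of -0.071. Without knockout sample 1, 8 of 13 were lower, with a median of -0.20. Adam10, the protease that sheds the E-cadherin ectodomain, differed by -0.21 (SE 0.14), and Fer, a kinase bound by p120, by 0.16 (SE 0.13). In the same samples 11 of 11 leukocyte markers were lower in the knockout group, with a median of -0.37, or -0.76 without knockout sample 1, and the part of leukocyte RNA in these values was not tested.

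Of the Kaiso relatives and genes reported as Kaiso targets, 3 of 6 were higher, with a median of 0.0034, or -0.067 without knockout sample 1, where the count was also 3. Zbtb4, a relative of Kaiso, differed by 0.14 (SE 0.14) and the cyclin gene Ccnd1 by -0.23 (SE 0.16). Of the transcriptional repressors of E-cadherin, 3 of 6 were higher, with a median of 0.026. Without knockout sample 1, 4 of 6 were higher, with a median of 0.21. Zeb1 read 6.64, 5.90 and 5.81 in the knockout samples and 6.64, 6.27 and 6.49 in the wild-type samples, a difference of -0.35 (SE 0.23). The groups overlapped, with knockout sample 1 at the top and knockout samples 2 and 3 at the bottom, the reverse of Cdh1 in those 3 samples. Zeb2 read 6.77, 5.16 and 5.25 in the knockout samples and 5.80, 6.22 and 5.92 in the wild-type samples, and was likewise highest in knockout sample 1. The leukocyte marker mean was also highest there, at 8.47, and its part in the Zeb1 and Zeb2 values was not tested. The choice to name Zeb2 was made with its values in view. Twist2 differed by 0.18 (SE 0.13).

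**Figure D4:**
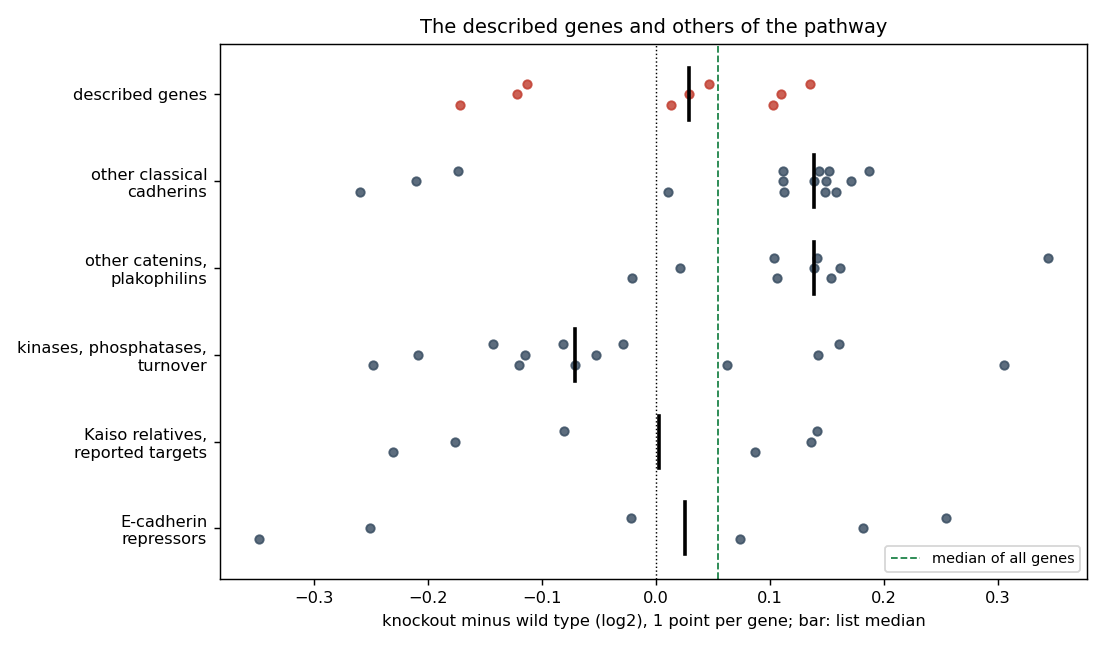
Knockout minus wild-type difference (horizontal axis, log2) of each gene in the 9 measured genes (red) and in 5 lists of other cadherin and catenin genes and partners (dark blue), with the list median as a black bar. The dashed line is the median of all genes, 0.055, and the differences run from -0.35 for Zeb1 to 0.34 for Pkp1.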

How the data were processed

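Per the labels' protocols, biotin-labelled RNA of GFP-sorted pancreas cells was measured on 6 arrays, 3 in each group. The deposited table holds log2 expression per row and array. It was made by the authors with RMA and Partek, per the submitters' processing notes, which give no versions. RMA compresses small values, so differences of dim rows can come out too small. Dim rows here also carried a shift toward higher knockout values. The median difference was 0.055 over all genes and -3e-04 over genes above the median gene. The genome build was not given in the sources used here. With 3 arrays in each group, their number limits the precision.

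Of 115830 rows, 25539 named 1 gene symbol in the platform annotation, 2300 several and 87991 none. Each gene was read from its row with the highest mean, which gave 20259 genes. Knockout minus wild type was fitted with limma 3.58.1 in R 4.3.3 (lmFit, eBayes), without a block, and p-values were adjusted over all genes with a threshold of 0.05. The fit was tested on simulated data. Single values were compared with exact two-sided permutation tests (SciPy 1.17.1).

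The members and gene lists were chosen with earlier results of these data known. Every measured member was named, then list genes at an unadjusted p under 0.05 or otherwise the 2 with the smallest p in each list. List counts without knockout array 1 were added after seeing the data. Sequences are from RefSeq. Replicate numbers were not used as a pairing in the main fit. Same-numbered deviations correlated at 0.041, 0.14 and -0.15 for numbers 1, 2 and 3, and differently numbered ones at -0.18 to 0.15. With 3 samples in each group these values cannot show whether the numbers pair the samples. The result of 1 further list is not reported here.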

Additional observations from a re-analysis of the deposited data

How the results depend on the processing

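Of 139 refits of the 9 genes, 119 kept the direction and stayed on the same side of the limma threshold, 19 changed sign with no call, and 1 was called, Arvcf with array weights, so that 1 of the 9 genes was called there. That fit's weights did not fully converge, and it called 4797 of all genes. Fits that left out 1 sample called 0 to 2 of all genes and 0 of the 9, and the fit with the replicate block called 0 and 0, with -0.17 for Ctnnd1. The block, the level filters and eBayes with trend and robust leave every difference unchanged, as do row choices for genes with 1 row. In those refits the direction was fixed in advance and only the p-value could change, so they add to the 119 without testing the direction. At an unadjusted p under 0.05 the count over all genes was 708, and it ran from 389 to 5938 when 1 sample was left out (highest when knockout sample 1 was left out; 448 for knockout sample 2, 432 for knockout sample 3 and 389 for wild-type sample 3), 256 relative to the epithelial markers, 449 and 242 in the filtered tables and 8729 with array weights. The sign changes were as follows. Ctnnd1 was 0.20 with array weights, and -0.42 to 0.12 when 1 sample was left out. Ctnnd2 was -0.085 after quantile normalization, -0.016 with samples shifted to 1 median, -0.077 relative to the epithelial markers and -0.0066 with array weights, and -0.020 to 0.051 when 1 sample was left out. Pkp4 was 0.24 for the mean of rows and 0.59 for the row of largest interquartile range. Cdh1 was -3e-05 with samples shifted to 1 median and -0.061 relative to the epithelial markers, and -0.15 to 0.35 when 1 sample was left out. Ctnnb1 was -0.044 relative to the epithelial markers and -0.044 to 0.098 when 1 sample was left out. The Pkp4 change comes from its second row, and the other causes were not tested. Ctnnd2, Arvcf, Cdh2 and Cdh3 gave no value in filters that removed them.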

Other observations

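The 5 genes whose pattern over the 6 samples was most like Ctnnd1, among 9557 genes above the median level, were Il6st (Pearson r = 0.997), Ehf (r = 0.995), Firre (r = 0.995), Ica1 (r = 0.992) and Stard13 (r = 0.989). Among those genes, 178 reached r = 0.9 or more with Ctnnd1, and Cdh1 ranked at 149. For Cdh1 the 5 were Aco1, Nectin2, Sec11c, Sh3d19 and Denn2b, with r from 0.993 to 0.997, and 663 genes reached 0.9. Ctnnd1 ranked at 583 for Cdh1. Such values over 6 samples of one table describe which genes shared the low samples and carry no test.

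Cdh1 also followed the mean of 8 endothelial markers, which was 4.77, 5.30 and 5.35 in the knockout samples and 4.84, 5.35 and 5.07 in the wild-type samples. Pearson's r was 0.98 (exact permutation p = 0.00139, adjusted 0.0486 over 35 relations) and Spearman's rho 1 (exact permutation p = 0.00278, adjusted 0.0972). It was 0.99 without the 2 samples farthest from the median of Cdh1 and 0.99 for deviations from the group means. Within that list Pecam1 went the other way, at 7.57 in knockout sample 1 and 6.70 and 6.62 in knockout samples 2 and 3. Cdh5, the endothelial cadherin, which was not among those markers, read 5.40, 6.34 and 6.43 in the knockout samples and 5.25, 6.62 and 5.89 in the wild-type samples. Its difference of 0.14 (SE 0.39) was not significant (limma adjusted p = 0.948).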
